A study of Mus musculus with 6 samples.

Results

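Schlafen genes are a family of mammalian genes named after the German word for sleeping, because forced expression of Slfn1, the founding member, halts the growth of thymocytes. The family is induced by type I interferon: the interferon receptor activates the kinases JAK1 and TYK2, these activate STAT proteins, and a complex that holds IRF9 binds a promoter element called ISRE in the genes it turns on. In macrophages and T cells Schlafen proteins are known for effects on cell quiescence, on myeloid differentiation and on tRNA, and the long members carry a helicase-like part that the short ones lack. The genes described here are the 7 members Slfn1, Slfn2, Slfn3, Slfn4, Slfn5, Slfn8 and Slfn9, taken by symbol from a table of 22377 genes. The family was chosen with its counts in the wt and ko libraries already in view, so each difference between those groups is given below as a description, without a p-value.

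RNA was sequenced in 6 libraries, 3 labelled wt and 3 labelled ko (also knockdown). According to the methods of the study, the wt mice were Npm1+/+ and the others Npm1+/-, heterozygous in the whole animal and not in macrophages alone, and how that allele was made is not given in the sources used here. Npm1 encodes nucleophosmin, an abundant nucleolar chaperone. The mice were male and female, 6 to 8 weeks old, and all carried subcutaneous tumors of LLC, a mouse lung carcinoma line, from which CD45+ CD11b+ F4/80+ macrophages were sorted. The sample labels instead name whole tumor tissue as the source, TRIzol as the extraction and a small RNA protocol for the libraries. The labels number the samples of each group as separate biosamples and do not tie them to single mice, and a figure legend of the study names fewer mice per group for a display of these data than there are libraries here. Each n, SD, SE and p below therefore counts libraries, and the spread between them may be partly technical.

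Npm1 itself was not lower in the libraries labelled ko. Npm1 stood at 142, 380 and 381 CPM (counts scaled to library size by the TMM method) in the wt libraries and at 441, 499 and 343 CPM in the ko libraries, a log2 fold change of 0.51 (SE 0.36) with an adjusted p of 0.436 in edgeR's quasi-likelihood test. The ko libraries are therefore called by their label throughout, and every direction below is that of the libraries labelled ko against those labelled wt. Total counts lay between 36550775 and 38147320, and 13884 genes passed the filter on low counts. The library wt replicate 1 stood apart, with a mean log2 difference (root mean square) to the other libraries of 1.17, where the other 5 lay between 0.641 and 0.784, so values without it are given where it matters. The sorting markers Itgam, which encodes CD11b, and Adgre1, which encodes F4/80, were detected in every library, at 1492 to 2975 CPM and 127 to 302 CPM.

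All 7 genes lie within 264 kb of mouse chromosome 11, at chr11:82951349-83215154 in GRCm38, and Npm1 lies 49.8 Mb away on the same chromosome. In the GENCODE annotation the order is Slfn5 (chr11:82951349-82964840, plus strand), Slfn9 (chr11:82978390-82991830, minus), Slfn8 (chr11:83002158-83020810, minus), Slfn2 (chr11:83065112-83070678, plus), Slfn1 (chr11:83116849-83122670, plus), Slfn4 (chr11:83175186-83190216, plus) and Slfn3 (chr11:83191330-83215154, plus). Levels of the pseudogene Slfn10-ps, between Slfn8 and Slfn2, and of Slfn14, beyond Slfn3, were not analysed here. The antisense gene Slfn5os overlaps Slfn5 and had 0 to 2 counts in each library. Slfn2 overlaps the antisense gene Gm20234, and whether the counting used strand is not given in the sources used here.

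**Figure D1:**
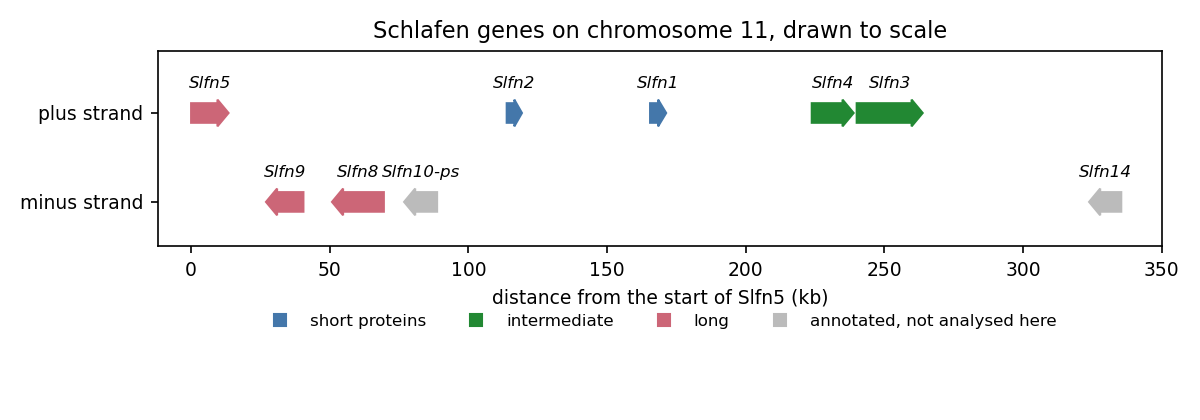
Position and direction of the Schlafen genes on mouse chromosome 11 (horizontal axis, distance from the start of Slfn5 in kb), on the plus strand (upper row) and the minus strand (lower row). Colors mark the length class of the encoded protein, and grey marks annotated genes whose levels were not analysed here. Slfn4 and Slfn3 lie next to each other on the plus strand, and Slfn9 and Slfn8 on the minus strand.

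The family falls into 3 length classes. Slfn1 and Slfn2 encode short proteins of 337 and 378 residues. Slfn3 and Slfn4 encode intermediate ones of 640 and 602 residues. Slfn5, Slfn8 and Slfn9 encode long ones of 884, 910 and 910 residues. The closest relatives are neighbours on the chromosome: Slfn8 and Slfn9 share 85.8% of aligned residues and Slfn3 and Slfn4 share 83.9%, whereas Slfn1 and Slfn2 share 55.3% and Slfn5 shares 42.7% with Slfn8 and 43.4% with Slfn9. Any short or intermediate member shares only 35% to 39.2% with any long one.

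**Figure D2:**
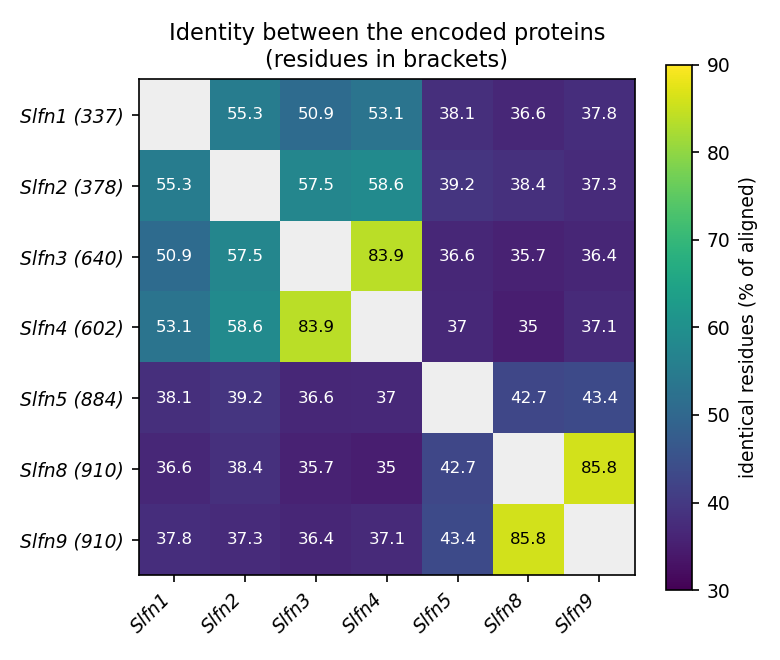
Identical residues between the proteins encoded by each pair of Schlafen genes, as a percentage of aligned residues (color scale and printed values), with the protein length in residues in brackets. The pairs Slfn3 with Slfn4 (83.9%) and Slfn8 with Slfn9 (85.8%) stand above all others, of which the highest is Slfn2 with Slfn4 (58.6%).

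Because reads from near-identical copies can be split between genes in counting, the transcripts were compared with each other. Of the words of 100 bases in each gene's annotated transcripts, 3.38% in Slfn8 and 3.71% in Slfn9 also occurred in another Schlafen transcript, against 0.128% in Slfn2, 0.0493% in Slfn4 and 0 in Slfn1, Slfn3 and Slfn5. With words of 50 bases the shares were 14.6% in Slfn8, 11.2% in Slfn9, 8.15% in Slfn4, 7.39% in Slfn3, 4.27% in Slfn2, 0.606% in Slfn1 and 0 in Slfn5. Much of this was shared with the pseudogene Slfn10-ps, at 100 bases 2.45% of Slfn8 words and 3.04% of Slfn9 words. At 50 bases these shares were 10.1% and 8.1%. Slfn8 and Slfn9 shared less with each other, 1.17% of Slfn8 words and 0.839% of Slfn9 words at 100 bases. At 50 bases they shared 9.3% and 6.52%. Words shared with transcripts outside the family came to 9.77% in Slfn3, 4.01% in Slfn4, 3.37% in Slfn5, 0.275% in Slfn1, 0.235% in Slfn9 and 0 in Slfn2 and Slfn8 at 50 bases, and to 2.92% in Slfn3, 0.238% in Slfn5, 0.222% in Slfn4 and 0 in the others at 100 bases. Slfn4 shared 6.28% of its words with Slfn3 and 1.72% with Slfn2 at 50 bases, and 0 and 0.0493% at 100 bases. How reads are divided is thus uncertain for Slfn3 with Slfn4 and Slfn2 with Slfn4, as well as for Slfn8 and Slfn9. The longest run of coding sequence that Slfn8 and Slfn9 share without a mismatch is 139 bases, inside 1 exon of each gene on the minus strand (GRCm38), and it is shown because a read wholly within it matches both genes.
Slfn8, chr11:83003134-83003272, and Slfn9, chr11:82981231-82981369: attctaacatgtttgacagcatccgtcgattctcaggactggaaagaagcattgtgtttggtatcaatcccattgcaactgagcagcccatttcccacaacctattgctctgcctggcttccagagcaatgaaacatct

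The promoters were searched for the interferon element ISRE, spelled here as GAAANNGAAA, and for the interferon-gamma element GAS, spelled as TTCNNNGAA, on both strands of the RefSeq windows from 250 bases before to 50 after each start (GRCm38.p6). An ISRE match lay in the windows of 3 of 7 members, Slfn5, Slfn8 and Slfn9, which are the 3 long ones, and in 3.44% of all 32851 windows. Slfn1, Slfn2, Slfn3 and Slfn4 had no match to these letters, and no member had a GAS match, which 8.3% of windows had. Of the interferon-induced genes listed below, 12 of the 22 with a window had an ISRE match and 5 of 22 a GAS match. The 3 matches are shown with 10 bases on either side, in the direction of the gene, with the match in capitals. In Slfn8 and Slfn9 it reads on the opposite strand.
Slfn5, chr11:82951937-82951966, plus strand: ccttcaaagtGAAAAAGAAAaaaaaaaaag
Slfn8, chr11:83020839-83020868, minus strand: atttgagcagTTTCGTTTTCcccaaaagca
Slfn9, chr11:82991856-82991885, minus strand: atccgagcagTTTCGTTTTCccaaaaacaa
Counted back from the RefSeq start, the match spans bases -155 to -146 in Slfn5 and -45 to -36 in Slfn9. The RefSeq window of Slfn5 is chr11:82951852-82952151, whereas its GENCODE span above begins earlier, at 82951349. The Slfn5 match therefore lies before the RefSeq start but inside the GENCODE span, and the sequence before the GENCODE start was not searched. In Slfn8 it spans -136 to -127 from one annotated start and -48 to -39 from the other. Slfn8 and Slfn9 carry the same 10 letters. A match is a description of the sequence and was not tested for binding.

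Levels can be compared between genes only per length, and the deposited FPKM values (fragments scaled to gene length and library size) were used for this. The family reached from below the middle to near the top of the genes tested. Slfn2, which in T cells is known to keep resting cells quiescent and to protect tRNA from cleavage, stood far above the rest with a median of 827.8 FPKM over the 6 libraries (range 741 to 1077), higher than 99.3% of the genes tested. Slfn4, known from myeloid cells that gather in inflamed stomach, followed at 93.5 FPKM (73.4 to 128), and Slfn1 at 87.7 FPKM (61.5 to 108). The ranges of Slfn4 and Slfn1 overlapped and Slfn4 was higher in 4 of 6 libraries, so their order is not settled.

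The long members came next. Slfn5, whose human counterpart acts in the nucleus on transcription, had a median of 19.5 FPKM (15.3 to 26.8) and Slfn8 of 14.6 FPKM (9.97 to 21.1). Their ranges overlapped, though Slfn5 was higher within each of the 6 libraries. Slfn3, studied mainly in the differentiation of gut epithelium, had 3.86 FPKM (2.86 to 4.44) and Slfn9 had 1.27 FPKM (0.285 to 1.66), above 48.8% and 30.6% of the genes tested.

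The order of the last 2 genes rests on the length that was divided by. The deposited values of Slfn9 correspond to 10874 bases, where the GENCODE exons of the gene cover 5965, and those of Slfn3 to 1816 bases, where the exons cover 3411. With the GENCODE lengths, an alternative chosen after seeing the data, Slfn9 stood at 2.32 FPKM and Slfn3 at 2.05 FPKM, which reverses their order. For the other 5 genes both lengths were nearly the same, and their order did not change.

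**Figure D3:**
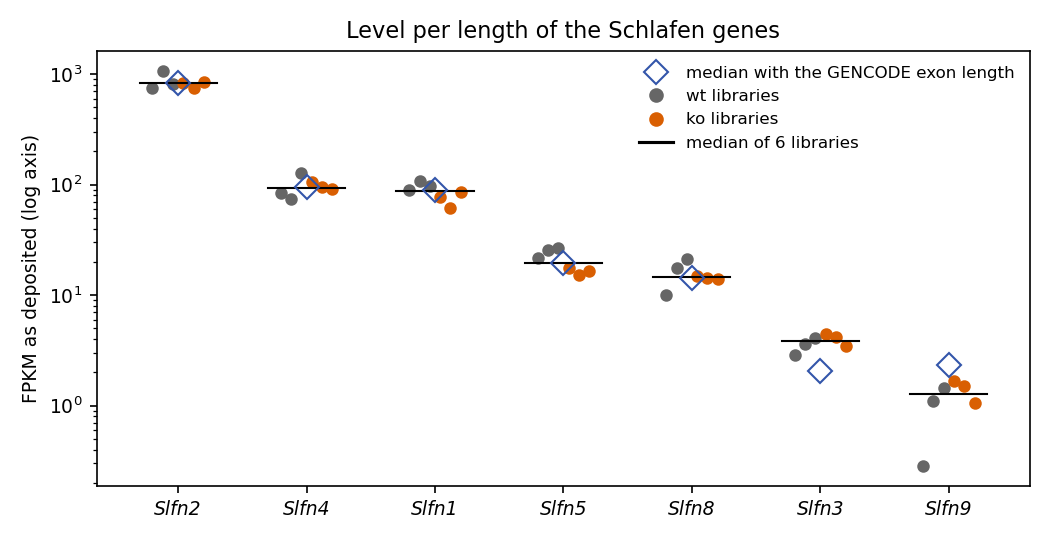
Level per length of each Schlafen gene (FPKM on a log axis), with 1 point per library in grey (wt) and orange (ko), the median of the 6 libraries as a line, and the median with the GENCODE exon length as a diamond. Slfn2 lies above 741 FPKM in each library, and the diamonds move Slfn3 below Slfn9.

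Slfn2 alone made up 74.6% to 82.5% of the family's summed FPKM. The summed CPM of the 7 genes was 2065, 2721 and 2373 in the wt libraries and 2052, 1678 and 2177 in the ko libraries, and groups overlapped. Without Slfn2 the sum was 742, 801 and 988 CPM in wt and 725, 591 and 729 CPM in ko. Here each ko library lay below each wt library, though ko replicate 3 at 729 and wt replicate 1 at 742 were close. This rests on the TMM scaling. On the deposited FPKM, the sum without Slfn2 was lower in wt replicate 1 than in ko replicates 1 and 3, so the groups overlapped.

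In the comparison of ko with wt libraries, all 7 members passed the filter on low counts, the lowest single count being 118, for Slfn9. In edgeR's quasi-likelihood fit no gene of the series was changed at a Benjamini-Hochberg adjusted p of 0.05, so no member was called, against a background of 0% called (2112 genes had an unadjusted p under 0.05, and DESeq2 called 36 genes). The estimate was lower in ko for 5 members and higher for 2. The median log2 fold change of the 7 was -0.26, and that of all genes tested was 0.02, with 52.1% of them higher in ko. In 2 of 7 members, Slfn5 and Slfn1, the 3 ko libraries all lay below the 3 wt libraries, which was so for 12.6% of all genes tested (25.9% in either direction, with 1751 genes lower and 1842 higher). On the deposited FPKM, which carry no TMM scaling, the same 2 members were lower, beside 6.88% of all genes tested (955 genes lower and 2577 higher). Since the members were chosen on this contrast, nothing is read from these counts.

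**Figure D4:**
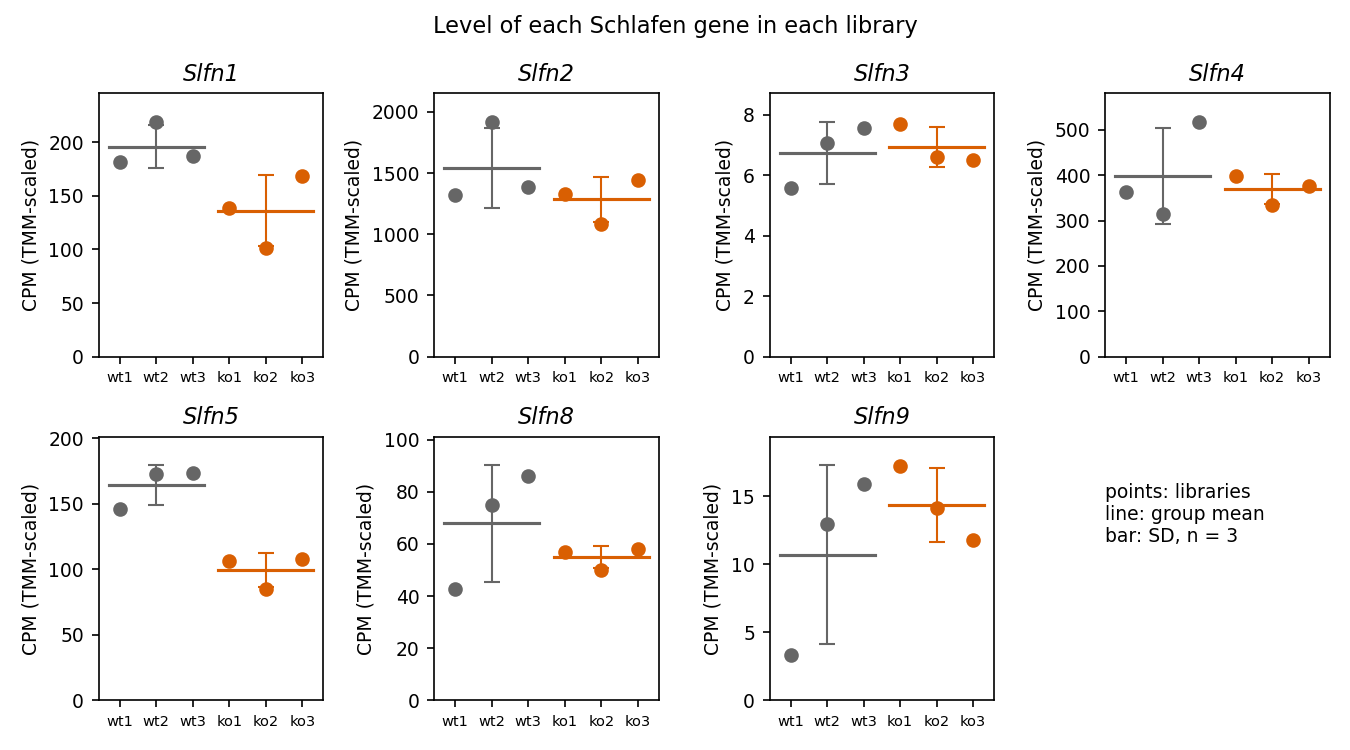
Level of each Schlafen gene in each library (CPM with TMM scaling, axes from 0 and different for each gene), with points for libraries in grey (wt) and orange (ko), lines for group means and bars for the SD (n = 3). The groups are apart for Slfn1 and Slfn5 and overlap for the other genes. Wt replicate 1 is the lowest library for Slfn3, Slfn8 and Slfn9.

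Slfn5 had the largest difference. It stood at 146, 173 and 173 CPM in the wt libraries and at 107, 84.7 and 108 CPM in the ko libraries. The groups did not overlap, and the highest ko library lay well under the lowest wt library. The means were 164 ± 15.4 CPM and 99.6 ± 13 CPM (SD, n = 3), a ratio of 0.607, or 0.576 without wt replicate 1. The log2 fold change was -0.72 (SE 0.14) and lay between -0.80 and -0.62 when each library was left out in turn. Its place among all genes was not extreme, since 18% of the genes tested had a larger absolute log2 fold change.

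Slfn1, the founding member, stood at 181, 219 and 187 CPM in wt and 139, 102 and 168 CPM in ko. The ko libraries were all lower, but ko replicate 3 came close to wt replicate 1. The means were 196 ± 20.4 CPM and 136 ± 33.5 CPM (SD, n = 3), with a ratio of 0.695 and a log2 fold change of -0.52 (SE 0.19). With each library left out in turn the log2 fold change lay between -0.71 and -0.36.

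Markers of cell types moved in these libraries too, and in bulk RNA fewer cells of a type and less RNA per cell cannot be told apart. The 10 macrophage markers all had a lower estimate in ko (median log2 fold change -0.55), with summed levels of 14560 to 20341 CPM in wt and 8565 to 14645 CPM in ko, which overlap narrowly. The 6 monocyte markers were all lower (median -0.72, sums of 4220 to 5877 CPM in wt and 2088 to 3857 CPM in ko), as were the 9 of 10 neutrophil markers that could be tested (median -0.78, sums of 1893 to 2120 CPM and 839 to 1613 CPM). In the other direction, the 8 T cell markers measured had higher estimates (median 1.24, sums of 85.7 to 269 CPM and 214 to 370 CPM), as had the 6 NK cell markers (median 0.99, sums of 25.8 to 49.0 CPM and 40.7 to 122 CPM) and the 8 fibroblast markers (median 1.24, sums of 24.0 to 478 CPM and 345 to 688 CPM). Wt replicate 1 had the lowest T cell sum (85.7 CPM, beside 176 and 269 CPM in wt replicates 2 and 3). It also had the lowest fibroblast sum (24.0 CPM, beside 478 and 276 CPM). Its macrophage and monocyte sums were the highest. Fold changes of the markers without that library are not given here. The part of all these markers in the lower levels of Slfn5 and Slfn1 was not tested.

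Sums of the other marker lists overlapped between groups, as did those of the macrophage, T cell, NK cell and fibroblast lists. Summed levels of 6 dendritic cell markers were 181 to 298 CPM in wt and 214 to 287 CPM in ko. They were 6.26 to 36.1 CPM and 11.8 to 58.0 CPM for 5 B cell markers, 32.8 to 40.1 CPM and 30.1 to 34.0 CPM for 6 endothelial markers, and 35.2 to 137 CPM and 129 to 191 CPM for 6 epithelial markers. The median log2 fold changes of these lists were -0.03, 0.0005, -0.32 and 0.76, in that order. In the epithelial list 3 genes were tested, and Krt19 and Cldn4 were at or under 3 counts in each library.

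Slfn8, a long member related to the rat protein that cuts tRNA and rRNA, stood at 42.9, 74.9 and 86.0 CPM in wt and at 56.8, 50.1 and 58.2 CPM in ko. The lowest value and the 2 highest were all in wt, so the groups overlapped through wt replicate 1 alone. The means were 67.9 ± 22.4 CPM and 55.0 ± 4.32 CPM (SD, n = 3), and the ratio was 0.81, or 0.684 without wt replicate 1. The log2 fold change was -0.30 (SE 0.24), or -0.55 to -0.11 with each library left out. Without wt replicate 1, a setting added after seeing the data for this count, 3 of 7 members (Slfn1, Slfn5 and Slfn8) had every ko library below every wt library, beside 15.2% of all genes tested. Leaving out a library can only keep or raise such counts.

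Slfn2 stood at 1323, 1920 and 1385 CPM in wt and at 1327, 1087 and 1447 CPM in ko. Wt replicate 2 was the highest and ko replicate 2 the lowest, and the other 4 libraries lay between 1323 and 1447 CPM in both groups. The log2 fold change was -0.26 (SE 0.20), or between -0.36 and -0.08 with each library left out. Slfn4 stood at 363, 315 and 518 CPM in wt and at 398, 334 and 377 CPM in ko. The highest and the lowest library were both wt, and the log2 fold change of -0.11 (SE 0.20) became positive without wt replicate 3, at 0.11.

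Slfn3 and Slfn9 were the 2 members with a higher estimate in ko, and neither kept its sign when wt replicate 1 was left out. Slfn3 stood at 5.57, 7.05 and 7.57 CPM in wt and at 7.68, 6.61 and 6.48 CPM in ko, with a log2 fold change of 0.04 (SE 0.22), or -0.08 to 0.12 with each library left out. Slfn9 stood at 3.32, 12.9 and 15.9 CPM in wt and at 17.2, 14.1 and 11.8 CPM in ko, from 118 to 677 counts a library. Only wt replicate 1 was apart, and the other 5 libraries of both groups were mixed. The log2 fold change of Slfn9 was 0.42 (SE 0.50), and it was -0.01 without wt replicate 1, when the ratio of the means was 0.997.

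Slfn8 and Slfn9, the members that share the most sequence with each other, did not run in parallel. The count of Slfn9 divided by that of Slfn8 was 0.0774, 0.173 and 0.185 in the wt libraries and 0.303, 0.282 and 0.203 in the ko libraries. Each ko library was higher than each wt library, and wt replicate 1 was the lowest. The closest values across the groups were 0.185 in wt replicate 3 and 0.203 in ko replicate 3. How often ratios of other gene pairs separate in this way was not counted. Beside this difference in ratio stands the uncertainty in how shared reads were divided, whose part was not tested. For Slfn3 divided by Slfn4 the ratio was 0.0153, 0.0224 and 0.0146 in wt and 0.0193, 0.0198 and 0.0172 in ko, and the groups overlapped.

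To see which genes ran like each member, log2 CPM was centred on its mean over the 6 libraries and the root mean square difference was taken, over 6 libraries and all genes tested. With so few points close matches are common, and the values are descriptions. Closest to Slfn1 were Mxd1 (0.04), Nfe2l2 (0.05) and Bst1 (0.06). For Slfn2 they were F10 (0.04), Pvr (0.05) and Ebpl (0.05), for Slfn3 Mkks (0.05), Ppp2r5e (0.05) and Lars (0.05), and for Slfn4 Ctso (0.07), Morc3 (0.07) and Wdr44 (0.08). For Slfn5 they were 4833418N02Rik (0.04), Slc2a1 (0.07) and Gm5431 (0.11).

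The nearest genes to Slfn8 were 4930599N23Rik (0.08), Rsad2 (0.11), which encodes the interferon-induced antiviral enzyme viperin, and Unc13b (0.11). For Slfn9 they were Zfp961 (0.06), Scrt1 (0.06) and Klhl42 (0.15). Within the family the closest pair was Slfn1 with Slfn5 at 0.16. Among the 13884 genes tested, 202 outside the family were closer to Slfn1 than Slfn5 was. Slfn8 and Slfn9 were 0.64 apart, with 10707 genes closer to Slfn8. Each member had genes outside the family closer than any relative. With so many genes compared over 6 libraries this is easily met, and no unlikeness within the family is read from it.

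The genes on either side of the cluster gave a local comparison. Rad51d, a DNA repair gene, had a log2 fold change of -0.02 (SE 0.23) and Nle1, a ribosome assembly gene, of 0.38 (SE 0.19) on the side of Slfn5. On the side of Slfn3, Ap2b1, an endocytosis adaptor gene, had -0.32 (SE 0.14, adjusted p = 0.328 by edgeR). The ko libraries of Ap2b1 all lay below its wt libraries, those of Rad51d and Nle1 overlapped with wt, and Unc45b and Rasl10b were too low to be tested.

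The interferon pathway was followed from ligand to target with lists that were written with earlier results of these data known. No gene of any of these lists was called by edgeR or DESeq2, and the smallest adjusted p was 0.328 in each list by edgeR. Of 11 ligand genes, 2 were high enough to be tested and both had higher estimates in ko: Ifnb1, type I interferon beta, with a log2 fold change of 0.73 (SE 0.36), and Ifng, type II interferon, with 2.17 (SE 0.78). In both the groups overlapped. Ifng stood at 1.10, 1.04 and 4.41 CPM in wt and at 6.74, 19.2 and 3.58 CPM in ko, so that ko replicate 2, also the library with the highest T cell marker sum (370 CPM), was far above the others. The part of T cells in this was not tested.

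Of the 10 receptor and JAK-STAT genes, 9 had lower estimates in ko and 1 a higher one, with a median log2 fold change of -0.26. At an unadjusted p under 0.05 there were 2 lower and 0 higher, beside 8.31% of all genes tested that were lower. Each ko library lay below each wt library in 4 of the 10 (12.6% of all genes tested). In 1, Jak2, each lay above (25.9% of all genes were apart in either direction). Ifnar1, a chain of the type I receptor, had -0.21 (SE 0.16) and Irf9, a DNA-binding part of the complex that acts on the ISRE, -0.26 (SE 0.17), both with overlapping groups. Jak2, a kinase of the interferon gamma receptor, had the single higher estimate, at 0.30 (SE 0.15).

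Of the 6 interferon regulatory factors 5 had lower estimates and 1 a higher one (median -0.58). Irf7, which amplifies type I interferon, had -0.61 (SE 0.16), and Irf1, a target of interferon gamma, had 0.54 (SE 0.14). In both the groups were apart, Irf1 at 300, 286 and 226 CPM in wt and 394, 412 and 375 CPM in ko.

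Of the 30 interferon-induced genes other than Schlafens, 27 were tested, and Mx1, Mx2 and Ddx58 were not analysed here. Estimates were lower in ko for 24 of them and higher for 3, with a median log2 fold change of -0.33 beside -0.26 for the Schlafens. In 13 of 27 each ko library lay below each wt library (12.6% of all genes tested) and in 0 above, and on the deposited FPKM there were 9 below (6.88% of all genes) and 0 above. Without wt replicate 1, where this count cannot fall, there were 17 below (15.2% of all genes). At an unadjusted p under 0.05 there were 11 lower and 0 higher, beside 8.31% of all genes tested that were lower at that p. This count fell to 6 without ko replicate 1, to 7 without ko replicate 2 and to 6 in both FPKM fits. The genes with the smallest p on the lower side were Dhx58, Oasl2 and Oas3. Dhx58, an RNA sensor regulator, had -0.72 (SE 0.16), Oasl2, of the oligoadenylate synthetase family, -0.65 (SE 0.14), and Oas3, which makes the activator of RNase L, -0.94 (SE 0.23). The 3 with higher estimates were Oasl1, also of that family, at 0.33 (SE 0.41), Ifih1, a sensor of viral RNA, at 0.07 (SE 0.27), and Parp14, an ADP-ribosyl transferase, at 0.06 (SE 0.21). The marker lists above moved in the same libraries and their part was not tested.

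Of 3 feedback inhibitors 2 had lower estimates (median -0.41), among them Usp18, which shuts off the type I receptor, at -0.83 (SE 0.19), while Socs1, an inhibitor of JAK kinases, had 0.53 (SE 0.24). Of 7 antiviral effectors that act on RNA, nucleotides or translation, 6 were tested, with 4 lower and 2 higher estimates (median -0.17). Samhd1, a nucleotide hydrolase, had -0.53 (SE 0.22) and Adar, an RNA editing enzyme, -0.51 (SE 0.18), whereas Zc3hav1, a binder of viral RNA, had 0.16 (SE 0.13).

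**Figure D5:**
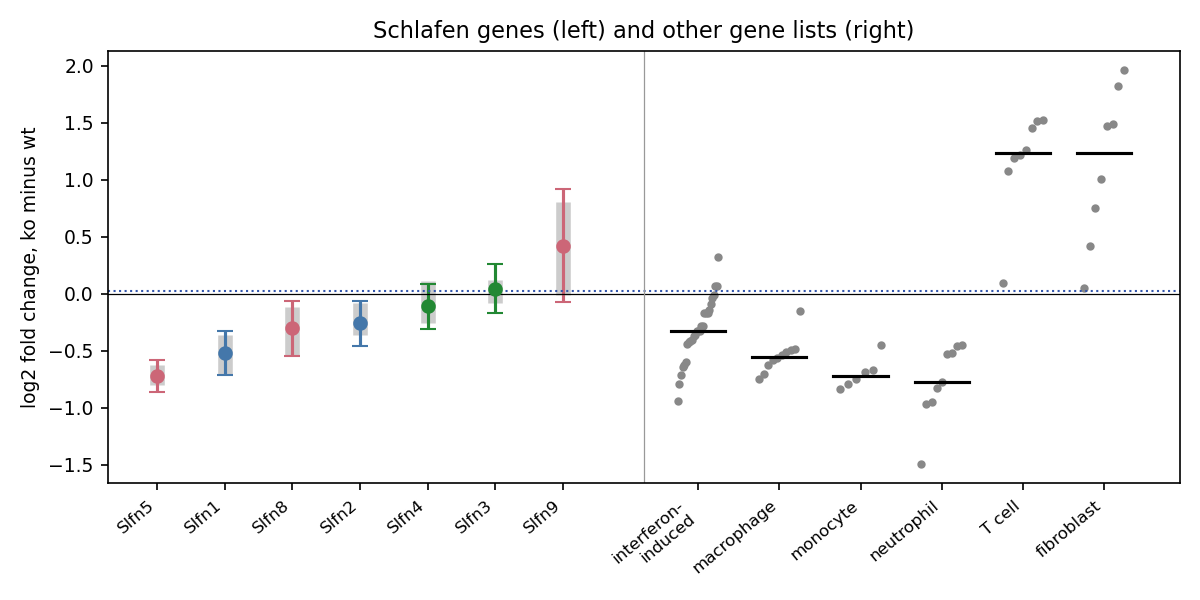
Log2 fold change of libraries labelled ko against wt, by edgeR. On the left are the 7 Schlafen genes in order, colored by protein length class as short (blue), intermediate (green) or long (red), with bars of 1 SE and a grey band for the range when each library is left out in turn. On the right each point is a gene of a list and the black line is the list's median, and the dotted line is the median of all genes tested (0.02). Slfn5 and Slfn1 lie below 0 over their whole band, and the band of Slfn9 runs from -0.01 to 0.81. The T cell and fibroblast lists have a median of 1.24, and wt replicate 1 had the lowest marker sum of each.

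The differences of Slfn5 and Slfn1 were smaller in fits to the other deposited unit, and that of Slfn9 varied with the pseudocount. Slfn9 had 0.72 with a pseudocount of 0.1 and 0.35 with a pseudocount of 1, beside 0.42 in the count fit. On log2(FPKM + 0.1), fitted with limma, the median log2 fold change of all genes tested was 0.16 in place of 0.02, and Slfn5 had -0.57 and Slfn1 -0.40. With a pseudocount of 1 the median of all genes was 0.09, and in the count fit it was 0.01 with RLE and 0.06 with upper quartile scaling. The FPKM fits differ from the count fit in scaling, pseudocount and model together, and the part of each was not tested. Relative to the median of all genes, Slfn5 had -0.74 in the count fit and -0.73 in the FPKM fit, and Slfn1 had -0.55 and -0.56. Slfn4 changed sign, from -0.11 to 0.07, and relative to the median of all genes it had -0.13 and -0.09. The median of the interferon-induced list was -0.33 in the count fit and -0.13 in the FPKM fit.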

How the data were processed

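RNA-seq of 3 wt and 3 ko libraries was used, grouped by the sample labels. The authors deposited raw counts per gene and, in another table, FPKM. Recomputation showed each deposited FPKM to be the count over a fixed gene length and the column's sum. The build is mm10 according to the submitters' processing notes. Aligner, counting tool, annotation and strand setting are not given in the sources used here, and the number of value columns left without a sample was 0. Counts were fitted with edgeR 4.0.16 in R 4.3.3 (filterByExpr, TMM, glmQLFit, glmQLFTest), with Benjamini-Hochberg adjustment over 13884 genes at 0.05, and the code was checked on simulated data. Standard errors were derived from the log2 fold change and its F statistic. Log2 CPM used a prior count of 2. Positions and transcripts come from GENCODE (GRCm38) and promoters from RefSeq (GRCm38.p6), matched by symbol for all 7 members. Proteins were translated from the longest complete coding sequence and aligned globally with Biopython 1.88 (Python 3.11.15).

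The members and lists were chosen with earlier results of these data known. Genes named are the 7 members and other rows whose symbol begins with Slfn, Npm1, the 3 genes most like each member, up to 3 genes with the smallest unadjusted p in each direction in each pathway list, Irf7, Irf9 and Ifnar1, the 3 nearest protein-coding genes on each side of the cluster, and the sorting markers. Some genes under this rule are not reported here. The lists were interferon ligands, receptors and JAK-STAT genes, regulatory factors, interferon-induced genes, feedback inhibitors, antiviral effectors, and 10 sets of cell type markers. Total counts differed little, so 1 count is worth nearly the same in each library, and 3 counts, taken as the floor, are worth 0.0716 to 0.0846 CPM, which covers counting error only. Samples with the same replicate number did not deviate together (correlations -0.241, 0.0605 and -0.337), so the fit has no replicate block. Alternatives were RLE and upper quartile scaling, no filter or at least 10 counts, DESeq2 1.42.0, limma 3.58.1 on log2(FPKM + 1) or log2(FPKM + 0.1), the block, each library left out, words of 50 bases in place of 100, and GENCODE exon lengths.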

Additional observations from a re-analysis of the deposited data

How the results depend on the processing

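With DESeq2, 36 genes were changed in place of 0 (13 higher and 23 lower in ko, 2451 at an unadjusted p under 0.05), none of them in the 6 pathway lists, and the cause was not tested. The count by edgeR was 0 under every other scaling, filter and fit run, from 0 to 0 with each library left out in turn, and the same holds for the interferon-induced list. The number of genes at an unadjusted p under 0.05 was less steady, at 775 without ko replicate 1, 669 without ko replicate 2 and up to 2689 without wt replicate 2, in place of 2112. In a fit with a replicate block 0 genes were changed, 1606 had an unadjusted p under 0.05, and Slfn9 had a log2 fold change of 0.64. Without wt replicate 1 the groups did not overlap in 4420 genes in place of 3593, a count that cannot fall when a library is left out. The median level of Slfn3 was 2.05 FPKM in place of 3.86 and that of Slfn9 was 2.32 FPKM in place of 1.27 with the GENCODE exon length, as follows from the lengths.

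Of the members, Slfn1, Slfn2, Slfn5 and Slfn8 kept their direction in all 14 alternatives. Slfn3 changed sign in 2 (without wt replicate 1 and without ko replicate 1), Slfn4 in 3 (both FPKM fits and without wt replicate 3) and Slfn9 in 1 (without wt replicate 1). Slfn3 and Slfn9 had the fewest counts, at most 302 and 677 in a library.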
